A study of Mus musculus with 2 samples.

Results

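Nppa, Nppb, Myl2, Bmp10, Hcn4, Shox2, Gja1 and Gja5, genes that tell the chambers and the pacemaker tissue of the embryonic heart apart, were followed in single cells of mouse embryos at embryonic day 9.5 (E9.5). They are 8 of the 27998 genes in the count files, taken by symbol, and each symbol named 1 row. Counts are unique molecular identifiers (UMIs), 1 per captured transcript, from a droplet kit that reads 3′ ends. Both libraries came from Swiss Webster embryos with Mesp1Cre, which recombines loxP sites in early mesoderm, and 1 copy of a Rosa26 GFP reporter that it switches on. The library labelled Ctrl carried these alleles alone (Mesp1Cre;Rosa26-GFPflox/+), and the library labelled cKO also carried 2 copies of Tbx1 with loxP sites (Tbx1flox/flox). The sort kept GFP-positive, DAPI-negative cells of the heart and the pharyngeal apparatus, so cells outside the Mesp1Cre lineage were not sampled. Each group had 1 library, made from a pair of pooled embryos, and the methods give the cKO embryos slightly more somites than the Ctrl embryos. Every difference below is therefore one between these libraries, with no replicate check and no test, and every interval is a 95% interval for counting error only.

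The heart tube of this stage is turning into chambers joined by slower segments. Working myocardium of the forming atria and ventricles switches on natriuretic peptide genes and fast-conducting connexins, while the inflow, atrioventricular and outflow segments keep a more primitive, slowly conducting state. The T-box repressors Tbx2 and Tbx3 are known to keep chamber genes off in the atrioventricular canal, and Shox2 is known to guard the pacemaker state at the venous pole, where the sinus node forms.

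Cells were kept if 1000 or more genes were detected and mitochondrial UMIs did not exceed 10%. Removal of presumed doublets then left 6591 cells labelled Ctrl and 8969 labelled cKO. Cells in which Tnnt2, Actc1, Myl7, Myh6 and Myh7 together reached 1% of UMIs were taken as cardiomyocytes. They were 220 cells labelled Ctrl, 3.34% (2.92 to 3.80), and 430 labelled cKO, 4.79% (4.36 to 5.26). The second share was the higher by 1.46 points (0.830 to 2.07). Muscle genes outside the rule were checked in these cells. Tnni1, Tnnc1, Ttn and Myl4 had a UMI in 99.1 to 100% of them, Actn2 in 72.3% and 71.9% and the cardiac factor gene Nkx2-5 in 77.7% and 77.9%. In other cells these shares ran from 0.574% (Actn2) to 35.1% (Tnni1). Cardiomyocytes held 4019036 and 6945833 UMIs, with medians of 17065 and 14961.5 per cell, and other cells had medians of 16854 and 14158. Levels are given as CPM, the summed UMIs of a gene per 1000000 UMIs of its cell class. The floor for a gene at 0, taken as 3 UMIs over the class, was 0.746 and 0.432 CPM in cardiomyocytes. Tbx1 itself was not lower in the library labelled cKO (27.3 and 46.7 CPM outside cardiomyocytes), the position of its loxP sites is not given in the sources used here, and 3′ counts from outside a deleted part check nothing. Groups are therefore named by their labels. Haemoglobin genes moved with the library, at 0.746 CPM summed over 7 genes in cardiomyocytes labelled Ctrl (5 genes at 0) and 159 CPM in those labelled cKO (1 gene at 0), and their part in the results was not tested. Summed markers of 6 other cell types ran from 3.48 to 429 CPM in cardiomyocytes labelled Ctrl and from 11.8 to 432 CPM in those labelled cKO, lowest for the paraxial and highest for the posterior heart field list in both. The posterior heart field list did not set cardiomyocytes apart. Of them, 46.4% and 44.9% carried 3 or more of its markers, against 42.9% and 35.2% of other cells. Only 15 cell barcodes occurred in both libraries.

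Of the 8 genes, 7 were at least 2-fold higher in cardiomyocytes than in the other cells of both libraries, against 9.69% of 8526 genes measured, and Gja1 was the exception. The 3 genes of working myocardium were the most restricted. Nppa, which encodes atrial natriuretic peptide, stood at 782 CPM (755 to 810) in cardiomyocytes labelled Ctrl and at 0.308 CPM in other cells, a ratio of 2536 (1820 to 3648). Nppb, which encodes B-type natriuretic peptide, had 361 CPM against 0.132 CPM, a ratio of 2727, and Myl2, the regulatory myosin light chain of the ventricle, 1303 against 1.34 CPM, a ratio of 973. These ratios were 1021, 764 and 623 in the library labelled cKO. Restriction was thus sharp for all 3 genes in both libraries, with a median of 1 UMI in those other cells that had any.

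The 4 further genes of this kind were enriched but not restricted. Bmp10, a secreted growth factor of the trabecular myocardium, was 13.0-fold higher in cardiomyocytes labelled Ctrl (9.94 to 17.0) and 5.30-fold higher in those labelled cKO (3.90 to 7.11). Hcn4, the main channel of the pacemaker current, was 10.4-fold (7.26 to 14.6) and 8.21-fold (6.26 to 10.7) higher, and Shox2 12.0-fold (10.8 to 13.3) and 6.45-fold (5.87 to 7.09). Gja5, which encodes connexin 40 of atrial and fast-conducting muscle, was 13.5-fold (9.85 to 18.3) and 27.0-fold (18.8 to 38.9) higher. Gja1, which encodes the widely used connexin 43, went the other way, at 0.222 (0.174 to 0.279) and 0.228 (0.180 to 0.285) of its level in other cells. Per UMI, connexin 43 transcripts were thus more frequent outside the heart muscle cells of both libraries.

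**Figure D1:**
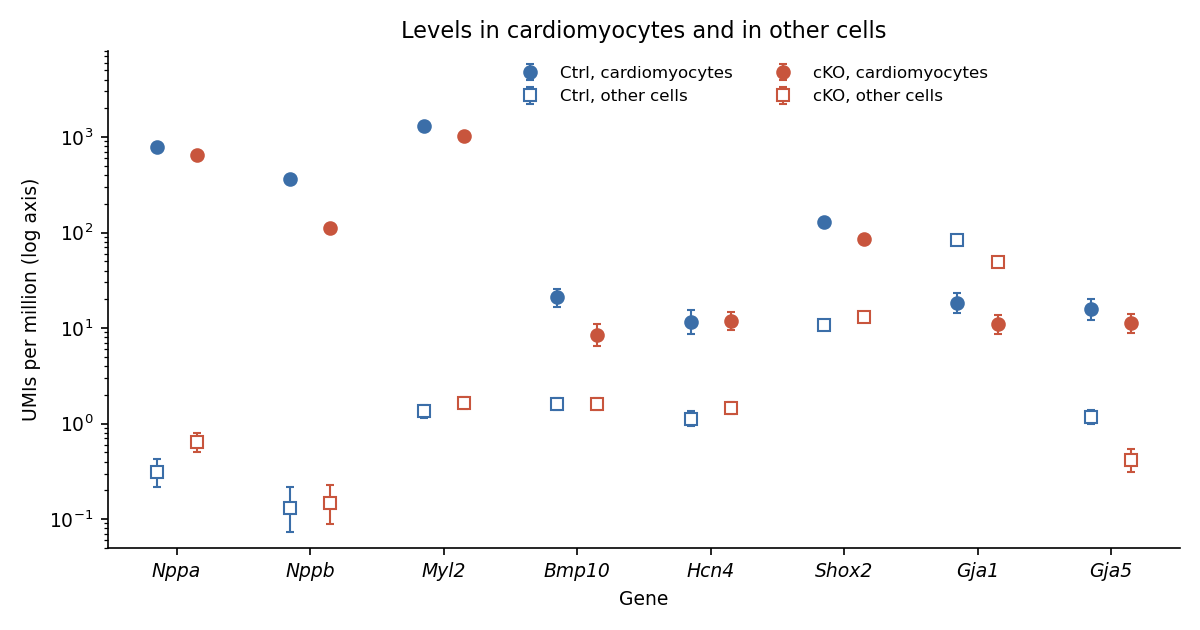
CPM (UMIs per 1000000, vertical log axis) of the 8 genes, by library, in cardiomyocytes (filled circles) and in other cells (open squares), with 95% Poisson intervals for counting error. Cardiomyocytes lie above other cells for 7 genes and below them for Gja1, and the vertical gap is widest for Nppa, Nppb and Myl2.

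The genes for both natriuretic peptides are neighbours on chromosome 4 of GRCm38, Nppb at 147985786 to 147987205 and Nppa at 148000722 to 148002074, with 13516 bases between them. Their proximal promoters are shown because both genes were found in the same cells. Each sequence runs from 250 bases before to 50 bases after a RefSeq transcript start (GRCm38.p6, plus strand, chr4:148000472-148000771 and chr4:147985650-147985949), and capitals mark every match, on either strand, to 4 short motifs. The first motif, TCACAC, is a core sequence bound by T-box factors such as those of the chambers. The next motif, AAGTG, is a core sequence bound by NKX factors such as the product of Nkx2-5. A further motif, GATAA, is a core sequence bound by GATA factors, which work with NKX factors in the heart. The last motif, TATAAA, is the TATA box of many tissue-restricted promoters.
Nppa: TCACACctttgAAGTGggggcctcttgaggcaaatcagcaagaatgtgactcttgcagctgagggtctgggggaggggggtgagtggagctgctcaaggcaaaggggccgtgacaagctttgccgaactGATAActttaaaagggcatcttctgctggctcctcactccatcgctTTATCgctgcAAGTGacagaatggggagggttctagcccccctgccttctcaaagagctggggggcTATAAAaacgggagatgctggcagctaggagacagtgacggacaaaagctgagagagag
Nppb: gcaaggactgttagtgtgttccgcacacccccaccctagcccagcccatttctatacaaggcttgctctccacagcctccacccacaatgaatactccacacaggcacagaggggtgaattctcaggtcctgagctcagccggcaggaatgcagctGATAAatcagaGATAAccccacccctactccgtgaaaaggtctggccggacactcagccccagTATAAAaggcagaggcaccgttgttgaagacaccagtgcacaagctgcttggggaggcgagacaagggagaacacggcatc
Both held 2 GATA cores and 1 TATA box, and the Nppa promoter alone also held a T-box core and 2 NKX cores. Among 32851 RefSeq promoters of this length, 25.4% held a GATA core, 13.6% a TATA box, 14.5% a T-box core and 46.4% an NKX core, so that single matches are common. Over all 8 genes, with 9 promoter entries, a GATA core was found for 5 genes, a TATA box for 4, an NKX core for 3 and a T-box core for 2, and no entry held a CArG box, which 1.63% of promoters hold. A match is a description of the letters only.

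Between the libraries, 2 of the 8 genes differed at least 2-fold in cardiomyocytes, Nppb and Bmp10, and both were lower under the cKO label. Over all 7722 genes measured there (10 CPM or more and 30 UMIs or more in either library), 1.75% passed 2-fold in either direction, 0.492% higher and 1.26% lower, and the median log2 difference was −0.05. The other 6 genes differed by less than 2-fold, 5 of them toward lower levels under the cKO label. Nppb stood at 361 CPM (342 to 380) in cardiomyocytes labelled Ctrl and 112 CPM (104 to 120) in those labelled cKO, 3.22-fold lower (2.95 to 3.52). Its neighbour Nppa stood at 782 and 653 CPM, a log2 difference of −0.26 (−0.33 to −0.20). For each Nppa UMI there were 0.461 Nppb UMIs under the Ctrl label and 0.171 under the cKO label, so the 2 peptide genes did not differ to the same degree.

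Cells carrying Xist but no Y-linked UMI, and the reverse, were found in both libraries. With a pair of embryos in each library this split follows the embryos, and sex and embryo cannot be told apart. Nppb had 353 and 326 CPM in the Xist and the Y-linked cells labelled Ctrl, and 69.4 and 168 CPM in those labelled cKO. Both cKO values lay below both Ctrl values, but the log2 difference was −2.35 (−2.56 to −2.14) in Xist cells and −0.96 (−1.16 to −0.76) in Y-linked cells, where it did not reach 2-fold. Nppa had 896 and 811 CPM against 643 and 645 CPM, again without overlap. The 2 kinds of cells thus stood further apart in Nppb under the cKO label than under the Ctrl label, and close together in Nppa. The Xist cells numbered 116 and 225 and the Y-linked cells 84 and 135.

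The shares of cells with a transcript followed the same order for Nppb. After thinning to 5000 UMIs a cell, which left 217 and 426 cardiomyocytes, 29.5% (23.5 to 36.0) of cells labelled Ctrl and 17.4% (13.9 to 21.3) of those labelled cKO had an Nppb UMI. Without thinning the shares were 42.3% and 25.6%. For Nppa they were 37.3% and 37.6% after thinning, nearly equal, and 43.6% and 44.0% before. Background was far lower: in paraxial cells, which should lack both genes and had medians of 18739 and 16078.5 UMIs, 0 of 396 and 2 of 280 thinned cells had an Nppa UMI and none had an Nppb UMI. A count of 0 allows shares of up to 0.758% and 1.07%. Expression was uneven among cardiomyocytes, with 72.1% and 65.3% of Nppa UMIs and 75.2% and 82.0% of Nppb UMIs in the top 10% of cells.

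Of 5 further genes for natriuretic peptide receptors and processing, 2 reached the level needed, and 0 passed 2-fold. Npr3, the clearance receptor, had 10.2 and 6.33 CPM and Furin, a protease that cuts peptide precursors, 20.2 and 20.3 CPM. Corin, the protease that activates pro-ANP, was counted at 28 and 37 UMIs.

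Myl2 marked the ventricular side. It had 1303 CPM (1268 to 1339) in cardiomyocytes labelled Ctrl and 1022 CPM (998 to 1046) in those labelled cKO, a log2 difference of −0.35 (−0.40 to −0.30). Values were 1174 and 1611 CPM in the Xist and Y-linked cells labelled Ctrl and 863 and 1266 CPM in those labelled cKO. The ranges of both labels overlapped, while the cKO value was the lower within Xist cells (log2 −0.44, −0.52 to −0.37) and within Y-linked cells (−0.35, −0.43 to −0.27). Thinned shares were 42.4% (35.7 to 49.3) and 35.9% (31.4 to 40.7), against 1 of 396 and 0 of 280 paraxial cells, and the unthinned shares 53.6% and 45.8%. Of 7 other ventricular genes, 5 were measured and 0 passed 2-fold, with a median log2 difference of −0.43 against −0.05 over all genes. Among them Myh7, the slow myosin heavy chain that is also part of the cardiomyocyte rule, had 1263 and 787 CPM, and the ventricular repressor gene Irx4 19.4 and 21.2 CPM.

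Bmp10 was the rarer of the 2 genes past 2-fold. It was counted at 84 UMIs, 20.9 CPM (16.7 to 25.9), in cardiomyocytes labelled Ctrl and at 59 UMIs, 8.49 CPM (6.47 to 10.96), in those labelled cKO, 2.46-fold lower (1.74 to 3.49). Xist and Y-linked cells had 22.6 and 20.8 CPM under the Ctrl label and 8.98 and 6.94 CPM under the cKO label. The embryo values did not overlap, and the difference passed 2-fold in both kinds of cells. A Bmp10 UMI was found in 7.37% (4.27 to 11.7) and 3.29% (1.81 to 5.45) of thinned cells and in 23.6% and 10.2% of unthinned ones, and in none of the thinned paraxial cells of either library. Its receptors and relatives gave 3 measured genes of 6, of which 1 passed 2-fold: Bmpr2, a type II receptor, at 66.4 and 28.5 CPM (log2 −1.22, −1.49 to −0.95). The list's median was −0.47.

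The pacemaker genes differed by less than 2-fold between the libraries. Hcn4 had 11.7 CPM (8.59 to 15.6) from 47 UMIs in cardiomyocytes labelled Ctrl and 11.9 CPM (9.52 to 14.8) from 83 UMIs in those labelled cKO, a log2 difference of 0.03 with an interval from −0.50 to 0.58. The values by embryo overlapped, at 14.7 and 9.10 CPM in Xist and Y-linked cells labelled Ctrl and 10.3 and 13.9 CPM in those labelled cKO. A difference in Hcn4 within that interval was not detectable at this depth. Shox2, a homeodomain factor of the venous pole, had 128 CPM (117 to 140) and 84.7 CPM (78.0 to 91.8), a log2 difference of −0.60 (−0.77 to −0.42). It was 154 and 98.8 CPM in Xist and Y-linked cells labelled Ctrl and 80.3 and 92.5 CPM in those labelled cKO. The log2 difference was −0.94 in Xist cells and −0.10 (−0.41 to 0.22) in Y-linked cells, where the interval included equality.

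Thinned shares were 5.07% (2.56 to 8.89) and 4.46% (2.71 to 6.88) for Hcn4 and 22.6% (17.2 to 28.7) and 19.0% (15.4 to 23.1) for Shox2, and the unthinned shares 17.3% and 16.0% for Hcn4 and 27.7% and 25.3% for Shox2. Endothelial cells, the background for Shox2, had medians of 17134 and 14044 UMIs and a Shox2 UMI in 2 of 373 and 0 of 365 thinned cells, which allows up to 0.822%. Hcn4 was found in 0 thinned paraxial cells. Of 13 other genes of the sinus and atrioventricular pacemaker tissue, 8 were measured, 0 passed 2-fold and the median was −0.43. Bmp2, a signal of the atrioventricular canal, had 63.2 and 38.7 CPM, and Vsnl1, a calcium sensor gene, 200 and 248 CPM. Of 9 regulators of chamber formation, all were measured, 0 passed 2-fold and the median was −0.40. Tbx20 (175 and 116 CPM) and Srf (47.8 and 31.2 CPM) stood at its lower end, and Nkx2-5 (117 and 128 CPM) and Hand1 (22.1 and 24.3 CPM) at its upper end.

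The connexin genes were both lower in cardiomyocytes labelled cKO, by less than 2-fold. Gja1 had 18.4 CPM (14.5 to 23.1) and 11.1 CPM (8.75 to 13.9), a log2 difference of −0.73 (−1.21 to −0.25). It was 20.2 and 14.3 CPM in Xist and Y-linked cells labelled Ctrl and 9.79 and 12.9 CPM in those labelled cKO, with a log2 difference past 2-fold in Xist cells (−1.04, −1.73 to −0.36) and one whose interval included equality in Y-linked cells (−0.14). Gja5 had 15.9 CPM (12.3 to 20.3) and 11.2 CPM (8.88 to 14.0), a log2 difference of −0.50 whose interval ended just short of equality. It was 17.7 and 16.3 CPM in Xist and Y-linked cells labelled Ctrl and 12.5 and 8.78 CPM in those labelled cKO, without overlap, but the interval of the difference included equality within each kind of cell (to 0.17 and 0.03 on the log2 scale) and with a class cut of 2% (to 0.04). Few cells made up the Gja1 count, with 90.5% and 85.7% of its UMIs in the top 10% of cardiomyocytes. Thinned shares for Gja1 were 3.69% (1.60 to 7.14) and 4.23% (2.52 to 6.60), with 13.2% and 12.6% before thinning. The haemoglobin-rich cells labelled cKO, with little Gja1, had a thinned share of 1.25% whose interval (0.152 to 4.44) held the 4.23%, so that this share and the Gja1 pairs below cannot be told from background. Shares for Gja5 were 7.83% and 6.10%, with 16.8% and 11.4% before, against 0 thinned paraxial cells with Gja5. Of 7 other connexin genes only Gjc1, which encodes connexin 45 of slowly conducting myocardium, was measured, at 99.3 and 87.2 CPM. Of 8 other atrial genes, 7 were measured and 0 passed 2-fold, with a median of −0.09 and the largest differences in Myl1 (127 and 219 CPM) and Stard10 (67.2 and 107 CPM).

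**Figure D2:**
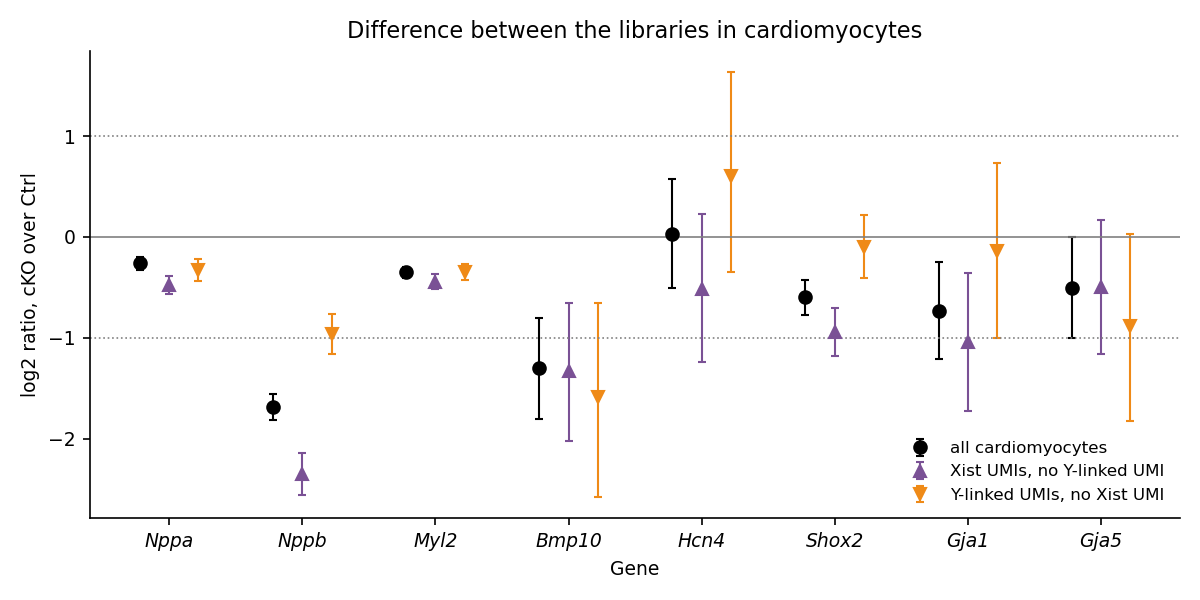
Difference between the libraries in cardiomyocytes as the log2 ratio of CPM, cKO over Ctrl, for all cardiomyocytes (circles) and for the cells of each kind by Xist and Y-linked UMIs (triangles), with 95% intervals for counting error. Dotted lines mark 2-fold. Nppb (−1.69) and Bmp10 (−1.30) lie past 2-fold in all cells, and Nppb falls just short of it in Y-linked cells.

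Which of the genes shared cells was asked next, on thinned cardiomyocytes. For each of the 28 pairs the number of cells with both genes was set beside the number that the product of both shares would give. Of these, 15 pairs had too few cells, 5 were at least 1.5 times above and 4 at most 0.67 times the product in both libraries, and 4 were neither. The share of all gene pairs that pass these limits was not computed, so whether these counts are unusual cannot be said. Of the 9 called pairs, 5 were called the same way without thinning and 4 with thinning to 3000 UMIs, and 5 in Xist cells and 3 in Y-linked cells. Nppa and Nppb were found together in 54 cells labelled Ctrl, where the product gave 23.9, and in 64 cells labelled cKO, where it gave 27.8. Of Nppb cells, 84.4% (73.1 to 92.2) and 86.5% (76.5 to 93.3) had Nppa. The reverse share differed, with Nppb in 66.7% (55.3 to 76.8) of Nppa cells labelled Ctrl and in 64 of 160 of those labelled cKO (32.3 to 48.0%). Nppb was thus nested in the Nppa cells of both libraries and reached a smaller part of them under the cKO label.

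Shox2 was seldom found with Nppa, Nppb or Myl2. Shox2 and Nppa met in 2 cells against 18.3 by the product and in 9 against 30.4, and Shox2 and Myl2 in 2 against 20.8 and in 7 against 29.1. Shox2 and Nppb met in 4 against 14.5 and in 4 against 14.1. With Bmp10 the cells were too few to call, 3 against 3.61 and 4 against 2.66. Hcn4 and Shox2 met more often, in 6 cells against 2.48 and in 9 against 3.61, and 54.5% (23.4 to 83.3) and 47.4% (24.4 to 71.1) of Hcn4 cells had Shox2. Cells with Shox2 but without Nppa, Myl2, Bmp10 or Gja5 were 19.4% (14.3 to 25.2) and 14.8% (11.6 to 18.5) of cardiomyocytes. They were 42 of 49 and 63 of 81 Shox2 cells.

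The connexins differed in the company of Myl2. Gja1 and Myl2 met in 8 cells against 3.39 and in 13 against 6.46, and all 8 Gja1 cells labelled Ctrl had Myl2. Gja5 and Myl2 met in 4 cells against 7.21 and in 1 against 9.34. Bmp10 and Nppa met in 12 cells against 5.97 and in 9 against 5.26, and Gja1 and Nppa in 6 against 2.99 and in 12 against 6.76, again with few Gja1 cells (8 and 18). Neither Nppa nor Myl2 was found in 43.3% (36.6 to 50.2) and 47.4% (42.6 to 52.3) of cardiomyocytes. No cell had more than 5 of the 8 genes, and 18.4% (13.5 to 24.2) and 26.1% (21.9 to 30.5) had 0 of them at this depth.

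**Figure D3:**
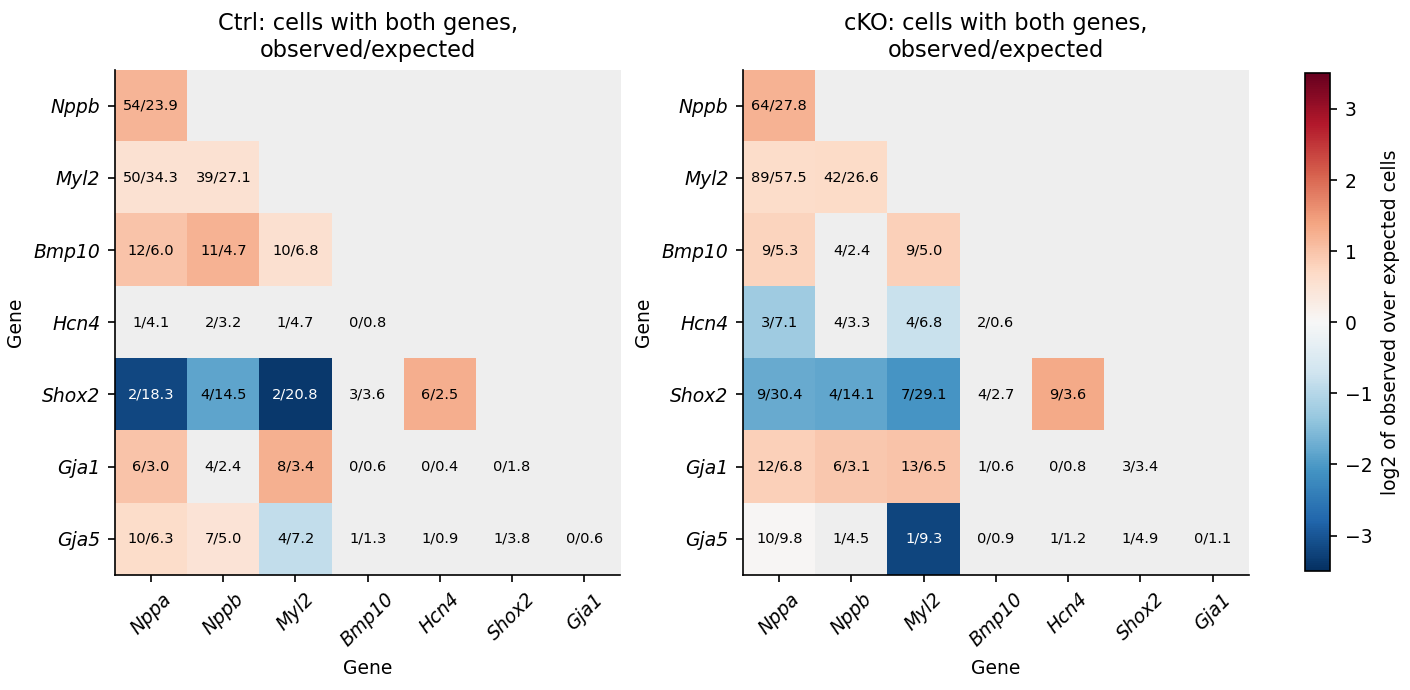
Cells with both genes of a pair, in cardiomyocytes thinned to 5000 UMIs, written as observed over expected for each library. Colour gives the log2 of that ratio where either number is at least 5 cells, and grey squares have fewer. Red squares include those of Nppa with Nppb, Gja1 with Myl2 and Hcn4 with Shox2, and blue squares those of Shox2 with Nppa, Nppb and Myl2. Squares of Gja1 rest on few Gja1 cells and cannot be told from background.

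To place the genes in the heart, their levels were compared between cardiomyocytes with and without a UMI of 11 regional markers, none of which is among the 8. A pair counted where the ratio was at least 2, or at most 0.5, the same way in both libraries, and 40 of 88 pairs did, 17 above and 23 below. Among all 84932 pairs of a measured gene with one of these markers, 1.4% did (0.546% above and 0.858% below). No minimum count in the carriers was set for the 40 pairs, and some rest on few UMIs. Bmp10 with Tbx2 was called on 4 and 2 UMIs, with an interval that included equality in both libraries. The 8 genes, unlike most others, were chosen as genes known to differ between heart regions. Depth differed between carriers and other cells in either direction, for example median UMIs of 18922 against 14723 for Hey2 and 13447 against 15082.5 for Tbx2 under the cKO label. Cells with Irx4 or Hey2, factors of the ventricle, had the most Myl2. Irx4 cells had 4304 and 3440 CPM of Myl2, 8.41-fold (7.93 to 8.92) and 9.41-fold (8.94 to 9.92) above the other cardiomyocytes. They also had more Nppa, at 1655 and 1347 CPM against 552 and 464 CPM, 2.58 and 2.53 times as much Bmp10 and 4.22 and 3.41 times as much Gja1. Hey2 cells had 9.74 (5.81 to 16.8) and 3.42 (1.98 to 5.70) times as much Gja1. Shox2 was counted at 0 and 6 UMIs in the 38 and 76 Irx4 cells, and Gja5 at 5 and 5 UMIs.

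Cells with Nr2f1 or Nr2f2, factors of the atria and the inflow region, had less Myl2 and more Shox2 and Gja5, the reverse of the Irx4 and Hey2 cells, while Nppa and Bmp10 passed neither limit for these 2 markers. Nr2f1 cells had 0.09 and 0.14 times as much Myl2 as the others, and 24.7-fold (14.8 to 44.4) and 10.7-fold (7.52 to 15.7) more Shox2. Gja5 was 5.18-fold (2.46 to 12.6) and 3.87-fold (2.03 to 8.12) higher in Nr2f1 cells and 7.20-fold (2.92 to 23.0) and 8.07-fold (3.02 to 30.4) higher in Nr2f2 cells. Hcn4 was higher in Nr2f1 cells, 6.21-fold (2.46 to 20.1) and 2.29-fold (1.34 to 4.11), but in Nr2f2 cells 6.55-fold under the Ctrl label and only 1.37-fold (0.819 to 2.40) under the cKO label. Shox2 and Gja5 were thus both higher in the Nr2f cells, while too few cells were there to say whether they shared single cells (1 thinned cell with both in each library, where the products gave 3.84 and 4.94).

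Each of the further markers was likewise set against all other cardiomyocytes. Cells with Isl1, a factor of both poles, had 0.04 and 0.14 times as much Nppa, 0.18 and 0.29 times as much Gja5 and 6.88-fold (5.59 to 8.52) and 7.11-fold (5.87 to 8.66) more Shox2. Cells with Tbx5, a factor of the left ventricle, atria and venous pole, had more Gja5, 4.37-fold (1.99 to 11.4) and 2.63-fold (1.51 to 4.80). Cells with Tbx18, a factor of the sinus horns, had 2.02 and 2.14 times as much Shox2 and 2.76 and 2.89 times as much Bmp10. Cells with Tbx3 had less Nppa (0.25 and 0.38 times) and Nppb (0.41 and 0.17 times), but 2.28 and 1.19 times as much Myl2. Cells with Bmp2 had less Nppa (0.31 and 0.17 times) and Myl2 (0.44 and 0.37 times). Tbx2 cells, only 21 and 48, had 0 and 16 Shox2 UMIs and 2 and 1 Gja5 UMIs, with 0.78 and 0.28 times as much Nppa and 1.54 and 0.11 times as much Nppb as the others. Gja5 was low with 7 markers (Irx4, Hey2, Tbx2, Tbx3, Bmp2, Isl1 and Sema3c), but on 1 to 9 UMIs in the carriers of each library, and the interval included equality in 1 library for Hey2, Tbx2 and Tbx3.

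Nppb was at least 2-fold lower under the cKO label in the carriers of each of the 11 markers. Log2 differences ran from −1.14 (Irx4) to −5.26 (Tbx2), where 219 UMIs in 21 cells stood against 10 UMIs in 48 cells. A single cardiomyocyte labelled Ctrl held up to 137 Nppb UMIs, and how many of the 219 came from 1 cell was not examined. The top 10% of cardiomyocytes labelled Ctrl held 75.2% of Nppb UMIs. Whether the difference was tied to a region was not tested. Bmp10 was lower in all 11 sets too, from −0.82 (Isl1) to −2.10 (Hey2), with an interval below equality in 9. Marker sets share cells and are not independent. Nppa and Myl2 showed no such common direction, lower in 8 and 7 sets and higher in 3 and 4. Nppa was 3.01-fold higher (2.24 to 4.12) in Isl1 cells labelled cKO, at 124 against 41.2 CPM. Shox2 was lower in 8 sets, each with an interval below equality, and higher in 3. It was 1.99-fold higher (1.38 to 2.94) in Tbx3 cells labelled cKO, at 143 against 71.9 CPM.

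**Figure D4:**
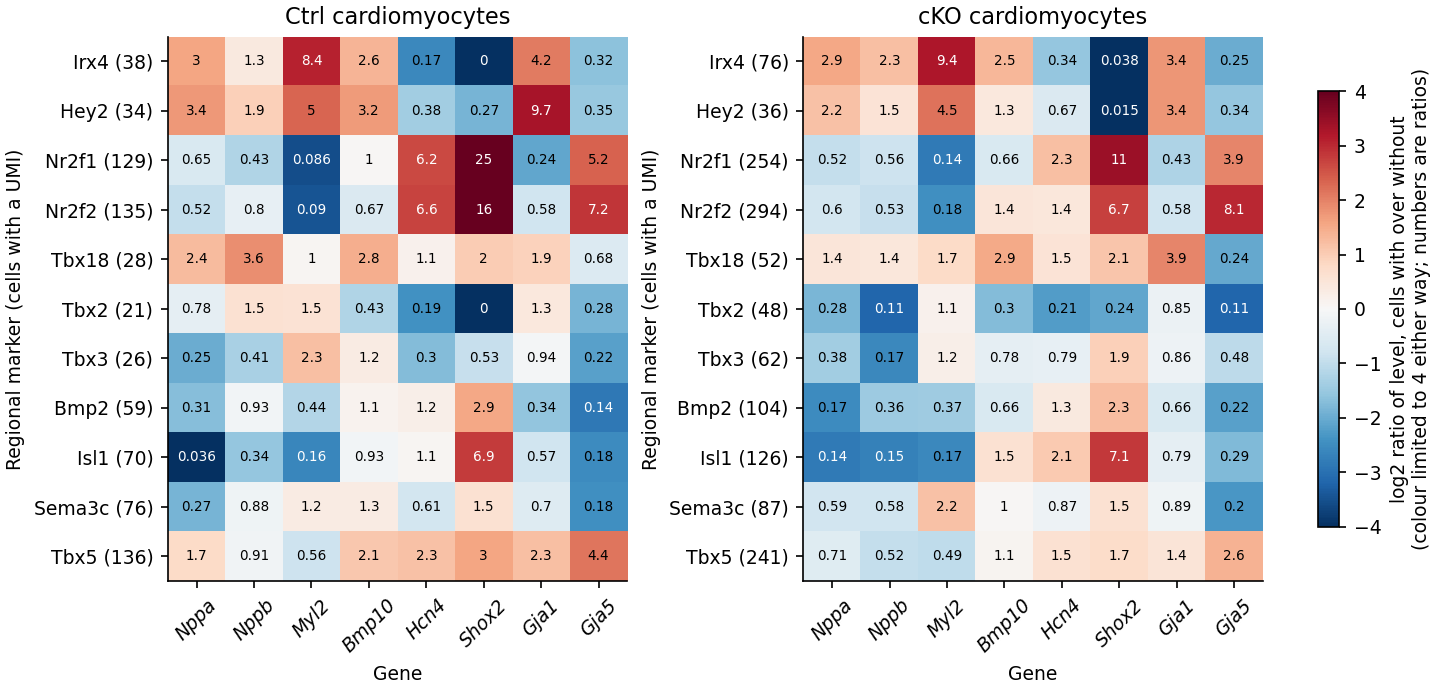
Ratio of the level of each gene (columns) in cardiomyocytes with a UMI of a regional marker (rows, number of such cells in brackets) over its level in cardiomyocytes without one, for each library. Numbers are ratios, and colour is their log2, limited to 4 either way. Myl2 is red for Irx4 and Hey2 and blue for Nr2f1, Nr2f2 and Isl1, and Shox2 shows the reverse.

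Cardiomyocytes labelled cKO had a larger share of their UMIs in the 5 sarcomere genes of the class rule, with a median of 3.21% against 2.82%. Cells at 4% or more were 33.3% of cardiomyocytes labelled cKO and 20.0% of those labelled Ctrl. Levels were therefore also compared within ranges of this share. At 1 to 2%, Nppb was 63.1 CPM (49.1 to 79.8) and 64.8 CPM (52.9 to 78.7), without a difference beyond counting error. At 2 to 4% it was 435 and 100 CPM, and at 4% or more 587 and 164 CPM. The lower Nppb was thus seen in the cells richest in sarcomere transcripts and not in the poorest. Nppa crossed over, with 96.0 and 320 CPM at 1 to 2%, 925 and 659 CPM at 2 to 4%, and 1397 and 885 CPM at 4% or more.

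Bmp10 was 16.4 and 9.53 CPM, then 24.3 and 12.2 CPM, then 17.0 and 2.31 CPM in the same 3 ranges, the last from 12 and 5 UMIs. Gja5 was highest at 4% or more (39.6 and 19.9 CPM), the range in which Gja1 had 1 and 6 UMIs. Shox2 ran against the sarcomere share in the library labelled Ctrl, from 246 CPM at 1 to 2% through 105 CPM to 17.0 CPM, and more gently under the cKO label, from 130 through 94.7 to 36.5 CPM. Hcn4 was 16.4, 10.4 and 8.49 CPM in these ranges under the Ctrl label, with overlapping intervals, and 21.0, 10.9 and 6.93 CPM under the cKO label. Just under the class cut, the 37 and 82 cells with 0.5 to 1% had 216 and 223 CPM of Shox2 and 24.9 and 22.8 CPM of Hcn4, but 1.66 and 4.22 CPM of Nppa. The pacemaker genes therefore reached across the cut and the natriuretic genes did not, with Nppb at 0 UMIs in these cells of both libraries.

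Outside cardiomyocytes, 0 of the 8 genes differed at least 2-fold between the libraries among the 2 that were measured there, Gja1 and Shox2, where 1.34% of 7782 genes did (0.501% higher and 0.835% lower under the cKO label). Gja1 was 82.9 CPM (81.2 to 84.6) under the Ctrl label and 48.7 CPM (47.5 to 49.9) under the cKO label, 1.70-fold lower (1.65 to 1.76). It was lower in each of 6 marker classes, endothelial, epicardial, posterior heart field, branchiomeric muscle, paraxial and cranial mesenchyme, with log2 differences from −0.74 to −0.41. Only in the epicardial class, of 67 and 85 cells, did the interval of the ratio (0.554 to 1.03) include equality. Gja1 was 83.0 and 84.3 CPM in the Xist and Y-linked cells labelled Ctrl and 50.7 and 46.4 CPM in those labelled cKO, without overlap. Thinned shares of cells were 31.4% (30.2 to 32.5) and 20.3% (19.5 to 21.2), and unthinned ones 63.7% and 44.2%. Haemoglobin-rich cells, 160 in the library labelled cKO and 0 in the other, had 2.62 CPM of Gja1 and a Gja1 UMI in 1.25% of thinned cells, at a median of 25232.5 UMIs. Of the other lists of pathway genes, 0 measured genes passed 2-fold in other cells, with list medians from −0.75 to −0.13 against −0.12 over all genes.

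Shox2 had no common direction over the classes. Outside cardiomyocytes as a whole it was 10.7 CPM (10.1 to 11.3) and 13.1 CPM (12.5 to 13.8), higher under the cKO label in 3 classes and lower in 3, and also lower in the cells that joined no class (8.14 and 6.33 CPM). Its leading class was epicardial in both libraries, with 36.5 CPM (26.9 to 48.4) and 80.1 CPM (66.1 to 96.1). In the posterior heart field class, of 2254 and 2564 cells, it was 18.2 CPM (17.0 to 19.6) and 29.0 CPM (27.4 to 30.8), and Hcn4, at low levels, 2.02 and 3.33 CPM (ratio 1.65, 1.24 to 2.19). Endothelial, paraxial and cranial mesenchyme cells had between 0.553 and 3.21 CPM of Shox2. Among the marker classes, Hcn4 and Shox2 were thus both highest in epicardial or posterior heart field cells, below their levels in the cells just under the class cut, and with only 3 Hcn4 UMIs in the epicardial cells of each library. These classes rest on small marker lists, and 37.6% and 48.6% of other cells joined none.

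Promoters of the pacemaker pair are shown for the same reason as those of the natriuretic pair, that the genes were found together. The windows are chr9:58822699-58822998 (plus strand) for Hcn4 and chr3:66981722-66982021 (minus strand) for Shox2, RefSeq GRCm38.p6, printed 5′ to 3′ along the gene with the same letters in capitals.
Hcn4: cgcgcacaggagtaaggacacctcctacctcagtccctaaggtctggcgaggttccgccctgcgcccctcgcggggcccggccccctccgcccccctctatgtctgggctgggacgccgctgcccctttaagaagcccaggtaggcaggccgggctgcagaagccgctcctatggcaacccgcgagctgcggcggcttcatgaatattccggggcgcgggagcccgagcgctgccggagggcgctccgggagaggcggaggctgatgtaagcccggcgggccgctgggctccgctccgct
Shox2: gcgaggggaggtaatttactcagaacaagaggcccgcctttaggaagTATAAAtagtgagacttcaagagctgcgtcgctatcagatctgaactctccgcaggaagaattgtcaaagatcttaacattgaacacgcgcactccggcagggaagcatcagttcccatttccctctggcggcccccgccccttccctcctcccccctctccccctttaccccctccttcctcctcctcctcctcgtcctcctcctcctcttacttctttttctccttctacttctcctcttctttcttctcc
No match was found for Hcn4, and for Shox2 1 match to the TATA box began 203 bases before the start. A TATA box match was thus shared by Nppa, Nppb and Shox2, at different distances from the start, which says nothing about the factors.

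Outside muscle, Gja5 was highest in endothelial cells of both libraries, and Bmp10 stood out in epicardial cells of the library labelled Ctrl. Connexin 40 is known as a connexin of arterial endothelium, and Gja5 had 95 UMIs and 13.9 CPM (11.2 to 16.9) in endothelial cells under the Ctrl label and 30 UMIs and 5.53 CPM (3.73 to 7.90) under the cKO label, 2.51-fold lower. No other class passed 1.39 CPM. Outside cardiomyocytes as a whole Gja5 was too low to count as measured (1.18 and 0.416 CPM), and its log2 difference was −3.15 in Xist cells and −0.63 (−1.37 to 0.07) in Y-linked cells. Bmp10 in epicardial cells had 15 UMIs and 11.4 CPM (6.39 to 18.8) under the Ctrl label, and 4 UMIs and 2.79 CPM (0.759 to 7.13) under the cKO label, an interval that held the levels of the posterior heart field and branchiomeric muscle classes there. It was near equal in the posterior heart field class (2.79 and 2.71 CPM), higher under the cKO label in the branchiomeric muscle class (0.631 and 2.56 CPM, from 5 and 17 UMIs), and at 0 UMIs in paraxial cells of both libraries.

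**Figure D5:**
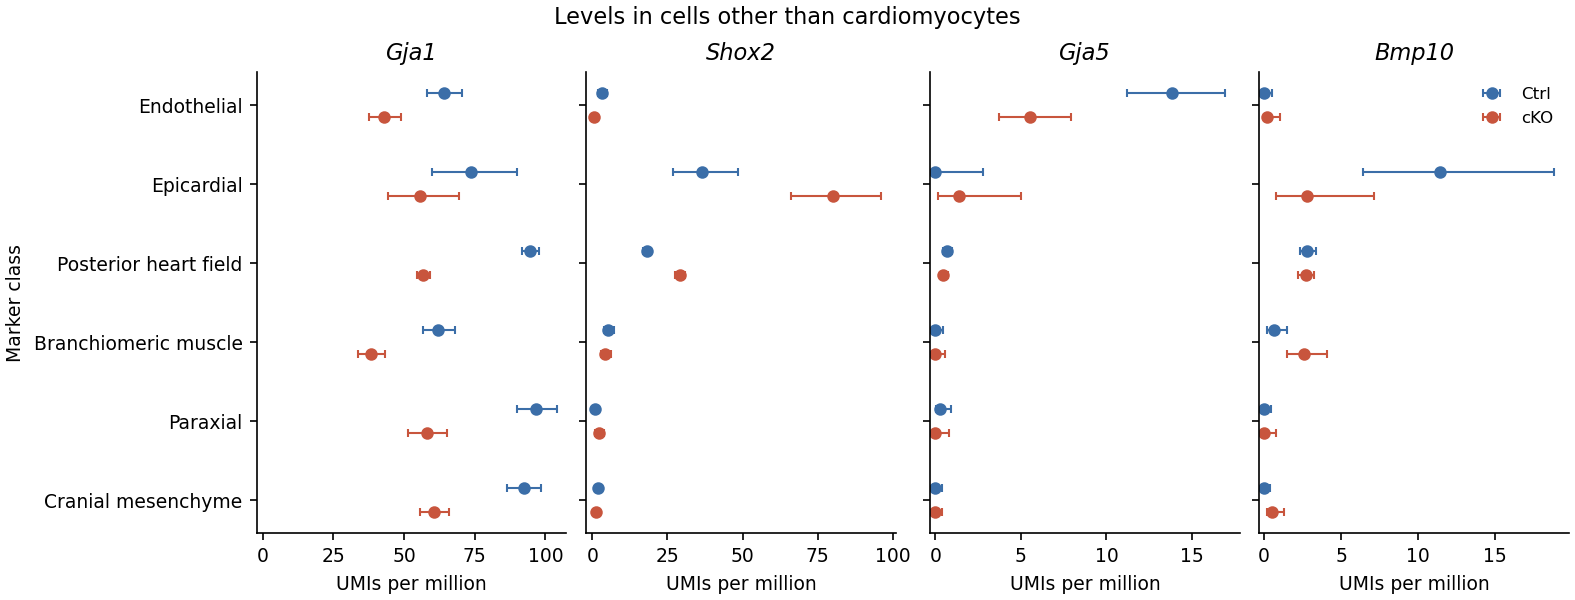
CPM (UMIs per 1000000) of Gja1, Shox2, Gja5 and Bmp10 in 6 marker classes of cells that are not cardiomyocytes, by library, with 95% Poisson intervals for counting error. Gja1 is lower under the cKO label in each class, Shox2 is highest in epicardial cells, and Gja5 is highest in endothelial cells.

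The genes most like each of the 8 across cardiomyocytes were ranked by the lower of the correlations in both libraries, over 9694 genes found in at least 5% of cells, as a description. These r are across cells of 1 library, which share its depth range. Nppa and Nppb were most like each other (r 0.75 and 0.60), followed for both by Smpx, a gene of the striated muscle cytoskeleton, and then by Myl3 for Nppa and Tinagl1 for Nppb. Myl2 was most like Myh7 (0.72 and 0.68), Irx4 and Ccnd2, a cyclin gene. Shox2 was most like Vsnl1 (0.62 and 0.57), Smoc2 and Lxn. Hcn4 was most like Shox2 (0.34 and 0.32), Vsnl1 and Igfbp5. Gja1 came with Alcam, Ncl and Cited1 (lower r 0.285 to 0.275) and Gja5 with Tmem163 and Angpt1 (0.292 and 0.260). No gene reached r 0.2 in both libraries for Bmp10. After thinning to 5000 UMIs only Nppa, Nppb, Myl2 and Shox2 still had a gene at that value, and the r of Hcn4 with Shox2 was then 0.136 and 0.212.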

How the data were processed

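The members and gene lists were chosen with earlier results of these data known. The deposited values are raw counts of UMIs per gene and cell barcode, which the authors obtained by aligning reads to mm10 (Cell Ranger 3.1.0, per the submitters' processing notes), without normalization. Filters on cells are given with the results, and 411 and 508 cells failed them. Doublets were the 416 and 804 cells with the highest Scrublet scores (scanpy 1.11.5), at 0.8% per 1000 cells, since automatic thresholds failed in 1 library. Levels (CPM) are a gene's UMIs over all cells of a class as a share of the UMIs of that class in the same library. Depth was 132017331 and 162874391 UMIs over 7418 and 10281 cells.

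Levels carry exact Poisson intervals, ratios exact conditional intervals and shares Clopper-Pearson intervals (scipy 1.17.1), and the difference in shares a Newcombe interval. With 1 library per group no test was run. UMI ratios and intervals were tested on simulated data. All 8 genes are described. Other genes came from the lists, or were the 3 most correlated with a member at r of at least 0.2 (log of UMIs per 10000). A cell joined the class of which it carried most markers, at least 3. Alternatives varied cell filters, doublets, class cut and genes, embryos, totals, floor and thinning. RefSeq promoters of 8 genes matched by symbol. Some genes that the rule would name are not reported here.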

Additional observations from a re-analysis of the deposited data

Results flagged for a closer look

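The signs of the difference between the libraries were opposite in cardiomyocytes and in other cells for Nppa and Shox2, and neither difference between the cell classes was tested. For Nppa the log2 difference was −0.26 (−0.33 to −0.20) in cardiomyocytes and 1.05 (0.47 to 1.66) in other cells, the latter from 35 and 83 UMIs in 6371 and 8539 cells. These levels of Nppa, 0.308 and 0.639 CPM, were too low to count as measured, beside 0 UMIs in paraxial cells labelled Ctrl and 2 UMIs (0.418 CPM) in those labelled cKO, and the part of free RNA in them was not tested. The difference was 1.38 in Xist cells and 0.66 (−0.43 to 1.80) in Y-linked cells, where the interval included equality, 1.75 with presumed doublets kept and 1.87 with a class cut of 2%. For Shox2 it was −0.60 (−0.77 to −0.42) in cardiomyocytes and 0.30 (0.19 to 0.40) in other cells, from 1212 and 1703 UMIs in the latter, with 3 marker classes higher and 3 lower.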

How the results depend on the processing

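No paired analysis was possible because each group had 1 library and the labels carry no replicate numbers. Of the counts and shares that summarise each comparison, 59 values under alternatives stayed within their limits (1.5 times for a count), including 1 chosen after seeing the data, in which the ranges of sarcomere share of the library labelled cKO were weighted as in the other. Within these limits, 3 genes in place of 2 passed 2-fold in Xist cardiomyocytes, and pairs called for shared cells ranged from 6 (thinning to 3000 UMIs) to 13 (class cut of 0.5%). In 4 cases the value moved further. With Y-linked cells alone, 1 gene in place of 2 passed 2-fold in cardiomyocytes, and 3 pairs in place of 9 were called for shared cells, with 23 of 28 pairs then too small. With no floor on CPM, 2 genes in place of 0 passed 2-fold in other cells, Nppa and Gja5. Likeness after thinning held for 4 genes in place of 7. Of the 9 pairs, 5 were called the same way without thinning, 4 with thinning to 3000 UMIs, 5 in Xist cells and 3 in Y-linked cells. With a class cut of 2%, 7 were called the same way. All 9 were called again with all deposited cells, presumed doublets kept, a class cut of 0.5%, or Tnnt2 and Actc1 alone as class genes. The remaining alternatives do not enter these calls and could not change them. No alternative called a pair the opposite way. Of the 40 calls by regional marker, 28 held in Y-linked cells, 33 with a class cut of 2% and 35 in Xist cells, with 0 opposite. Under the other alternatives that could change them, 37 to 40 held. Thinning and the floor on CPM do not enter these calls and could not change them. The log2 difference in cardiomyocytes ran from −2.35 to −0.96 for Nppb, −1.58 to −1.11 for Bmp10, −0.94 to −0.10 for Shox2, −1.04 to −0.14 for Gja1, −0.89 to −0.49 for Gja5 and −0.51 to 0.61 for Hcn4. Hcn4, Bmp10, Gja1 and Gja5 rest on 47 to 84 UMIs in cardiomyocytes of each library, so that small differences in them were not detectable.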
